A study of Rattus norvegicus with 18 samples.

Results

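Fkbp5, Sgk1, Tsc22d3, Klf9, Dusp1 and Nr3c1 are genes of the glucocorticoid response, followed here in rat lung after 13 weeks of cigarette smoke inhalation. They are 6 of 13811 genes with a single symbol on the arrays, and were taken as every probe set that the platform annotation assigned to one of these symbols only. This gave 11 probe sets, 10 on the array type called A here and 1 on type B. Of the 11, 9 passed a filter on dim signals and were tested, covering all 6 genes. The Klf9 probe set 1390076_at (mean signal 97.7) and the Nr3c1 probe set 1368222_at (mean 99.6) reached the filter's minimum on 0 arrays.

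Male Sprague-Dawley rats underwent nose-only sessions of 2 h, 5 in each week, with mainstream smoke of the 2R4F reference cigarette or with sham exposure. Smoke was given at 300 or 600 µg/l, counted as total particulate matter (TPM), and recovery after the final session lasted 2, 6 or 20 h before the lung was collected. Each of the 9 conditions had 1 array of each type, the number of animals behind an array is not given in the sources used here, and clock times are not given either. The samples titled as smoke-exposed with 20 h recovery also carry an exposure label that reads sham; they were grouped by title. The chitinase gene Chia, checked for this reason on type A, read 1642.6 in sham, 4856.6 at 300 µg/l and 7358.2 at 600 µg/l at 20 h, beside 1492.7, 6296.6 and 7384.9 at 2 h. This check does not cover the type B arrays. One array stood apart, that of type B with the title sham at 2 h. It resembled the array of its type at 300 µg/l and 2 h (r = 0.56 of deviations from the mean array, across probe sets), while type A gave r = -0.16 for the same conditions. Of the members it bears only on the type B probe set of Fkbp5.

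Glucocorticoids such as corticosterone enter cells and bind the receptor encoded by Nr3c1, which is held ready in the cytoplasm by a chaperone complex around HSP90. The bound receptor moves to the nucleus and switches genes on through glucocorticoid response elements, or restrains inflammatory genes through other factors. Blood corticosterone in rats follows a daily rhythm, and lung responds to it in development, surfactant production, fluid clearance and inflammation. Fkbp5 encodes an HSP90 co-chaperone that lowers the receptor's affinity for hormone, and so closes a negative feedback loop. Tsc22d3 encodes GILZ, an anti-inflammatory leucine zipper protein. Klf9 encodes a zinc finger transcription factor. Sgk1 encodes a kinase that promotes sodium transport by epithelia. Dusp1 encodes a phosphatase that switches off MAP kinases, and is also an immediate early gene.

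Sequences around the start sites of 4 members are shown because 3 of these genes, Tsc22d3, Klf9 and Fkbp5, had their lowest signal in sham at 20 h, while Dusp1 did not. Sgk1 and the tested Nr3c1 probe set, whose windows are not shown, did not either. They come from RefSeq on the rat assembly GRCr8 and cover 250 bases before to 50 bases after an annotated start, written 5′ to 3′ on the gene's strand, so each holds promoter and the first bases of the transcript. All 6 genes matched, with 11 windows. Capitals mark matches on either strand to 3 short motifs. The letters TGACG are the core of a cAMP response element. An E-box, bound by clock factors among others, reads CACGTG here. The TATA box was searched as TATAAA.
Tsc22d3, window 3 of 3, chrX:109009985-109010284, minus strand: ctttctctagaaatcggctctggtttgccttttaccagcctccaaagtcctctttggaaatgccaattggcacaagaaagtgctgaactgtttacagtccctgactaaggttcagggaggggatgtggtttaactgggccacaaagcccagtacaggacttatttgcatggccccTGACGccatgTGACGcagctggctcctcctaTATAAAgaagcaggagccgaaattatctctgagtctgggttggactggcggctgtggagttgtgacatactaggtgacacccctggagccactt
Klf9, chr1:230126396-230126695, plus strand: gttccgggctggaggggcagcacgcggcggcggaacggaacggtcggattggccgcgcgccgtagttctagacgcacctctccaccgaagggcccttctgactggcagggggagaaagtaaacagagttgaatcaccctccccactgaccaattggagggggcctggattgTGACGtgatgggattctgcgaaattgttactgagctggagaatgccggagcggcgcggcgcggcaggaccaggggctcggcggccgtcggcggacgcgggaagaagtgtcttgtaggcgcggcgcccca
Fkbp5, chr20:6543506-6543805, minus strand: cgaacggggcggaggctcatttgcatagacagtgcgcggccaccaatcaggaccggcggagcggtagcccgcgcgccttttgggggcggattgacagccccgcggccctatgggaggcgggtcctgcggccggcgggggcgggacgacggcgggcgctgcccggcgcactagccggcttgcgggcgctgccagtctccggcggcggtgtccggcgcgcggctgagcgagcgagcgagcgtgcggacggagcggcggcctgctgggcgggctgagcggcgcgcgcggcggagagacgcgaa
Dusp1, chr10:17184603-17184902, plus strand: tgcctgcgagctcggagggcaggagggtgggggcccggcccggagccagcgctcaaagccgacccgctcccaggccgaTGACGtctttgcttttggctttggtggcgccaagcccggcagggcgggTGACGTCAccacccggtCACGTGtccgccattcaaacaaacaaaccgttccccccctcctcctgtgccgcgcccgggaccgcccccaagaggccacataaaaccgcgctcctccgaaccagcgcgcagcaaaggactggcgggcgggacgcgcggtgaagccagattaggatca

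The Tsc22d3 window held TGACG at -75 and -65 and TATAAA at -44, counted in bases from the start site. Klf9 held TGACG at -79. Dusp1 held TGACG at -172, -124 and -121, the last pair overlapping on opposite strands as TGACGTCA, and CACGTG at -107. Of 33469 windows of this length in the rat annotation, 21.2% held TGACG, 6.42% CACGTG and 14.2% TATAAA. The palindromic glucocorticoid response element (the AGAACA arm, any 3 bases, then its reverse complement) was in 0.0149% of all windows and the arm alone in 20.7%. Neither set of letters was found in any of the 11 windows of the 6 genes, which says nothing of elements farther away. The Fkbp5 window and the other 2 windows of Tsc22d3, not shown, held no match to any of these motifs. Of the Sgk1 windows, also not shown, 1 held TATAAA at -55 and another at -33. The Nr3c1 windows held no match.

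Nr3c1, the receptor, had nearly the same signal on every array by its tested probe set. Its probe set 1368221_at read 1096.8, 1179.7 and 1189.9 after 2, 6 and 20 h in the sham group. The same times gave 1035.6, 1081.7 and 1196.1 at 300 µg/l and 1025.7, 1216.4 and 1049.6 at 600 µg/l. The exposures overlapped, and the highest array was 1.19 times the lowest. All signals are MAS5 intensities on a linear scale, made comparable between arrays by a trimmed mean of 500.1 on each. Fitted over all times on log2(signal + 50), 600 µg/l minus sham was -0.07 (SE 0.09, 95% interval -0.27 to 0.12, adjusted p = 0.83). The untested probe set 1368222_at read 71.4 to 129.8 on all arrays. Its sham signals were 94.6, 114.7 and 71.4 after 2, 6 and 20 h, so here sham at 20 h was the lowest array, at a dim level.

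Fkbp5, the feedback co-chaperone, had the widest range of the members. Its type B probe set 1380611_at read 618.6, 400.9 and 222.7 after 2, 6 and 20 h in the sham group. The same times gave 594.3, 324.1 and 473.9 at 300 µg/l and 914.2, 425.3 and 668.6 at 600 µg/l. Sham was thus lowest at 20 h, where both smoke levels lay above it, at 2.13 and 3.002 times its signal. That sham array is below the minimum of 238.7 used for type B, which makes these ratios uncertain in size. At 6 h the 3 exposures were close together. The type A probe set 1388901_at, measured on other arrays, read 349.6, 309.2 and 218.4 in sham, 414.1, 263.3 and 291.1 at 300 µg/l, and 573.8, 286.3 and 436.1 at 600 µg/l. It had its lowest array in the same condition, sham at 20 h, and its highest in the same one, 600 µg/l at 2 h. Over the 9 conditions both probe sets of Fkbp5 correlated with r = 0.95 and rho = 0.93 (exact permutation, two-sided, adjusted p = 0.0032 and 0.012 over 16 pairs), and r was 0.92 without the 2 conditions farthest from the median.

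The difference of Fkbp5 between 600 µg/l and sham over all times was 0.67 on the log2 scale (SE 0.23, adjusted p = 0.33) by the type B probe set. By the type A probe set it was 0.47 (SE 0.16, adjusted p = 0.31). Neither passed the threshold of 0.05. Without the sham condition at 20 h these differences were 0.30 and 0.31. Leaving out sham at 6 h gave 0.93 and 0.69. Without the doubtful type B array the type B difference was 0.77 (adjusted p = 0.37).

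Tsc22d3, which encodes GILZ, was among the brightest members. It read 2183.8, 2336 and 1505 after 2, 6 and 20 h in the sham group. The same times gave 2284.6, 2067.3 and 2393.7 at 300 µg/l and 2695.5, 1855 and 2453.9 at 600 µg/l. Sham at 20 h was the lowest of the 9 arrays, and the smoke arrays at 20 h were 1.59 and 1.63 times as bright. At 6 h the order was the opposite, with sham highest and 600 µg/l lowest. The difference between 600 µg/l and sham over all times was 0.22 (SE 0.16, adjusted p = 0.70), and it was -0.01 without the sham condition at 20 h.

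Klf9 was measured by a bright and a dimmer probe set. The bright one, 1370209_at, read 2466.7, 3200.5 and 1835.9 after 2, 6 and 20 h in the sham group. The same times gave 2165.6, 2411.5 and 2218 at 300 µg/l and 2461.8, 1940.2 and 2733.4 at 600 µg/l. Sham held both extremes, the highest array at 6 h and the lowest at 20 h, so that smoke lay below sham at 6 h and above it at 20 h. The dimmer probe set, 1387882_at, read 344.7, 283.3 and 137.9 in sham, 240, 297.9 and 271.3 at 300 µg/l, and 293.8, 229.3 and 276.5 at 600 µg/l. Here too sham at 20 h was lowest, and below the filter's minimum of 183.8, so its ratio to smoke (1.97 and 2.01) is uncertain in size. Over all times, 600 µg/l minus sham was -0.05 (SE 0.18, adjusted p = 0.95) and 0.11 (SE 0.21, adjusted p = 0.91). The untested probe set 1390076_at read 77.5 to 124.7 on all arrays, with sham highest at 6 h and lowest at 20 h.

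Sgk1, the sodium transport kinase, varied little. It read 1360.6, 1345.8 and 1533.9 after 2, 6 and 20 h in the sham group. The same times gave 1458.8, 1616.8 and 1408.6 at 300 µg/l and 1671.1, 1566.6 and 1539 at 600 µg/l. At 20 h 600 µg/l and sham were nearly equal, at 1539 and 1533.9, and the highest array of all was 1.24 times the lowest. The difference between 600 µg/l and sham was 0.17 (SE 0.09, 95% interval -0.03 to 0.37, adjusted p = 0.58). Sgk1 did not share the low sham signal at 20 h of Fkbp5, Tsc22d3 and Klf9.

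Dusp1, the MAP kinase phosphatase, gave no common picture across its probe sets. The brighter, 1368146_at, read 2155.2, 1513.4 and 2017.8 after 2, 6 and 20 h in the sham group. The same times gave 2153.5, 1909 and 2423.9 at 300 µg/l and 2458.9, 1635.9 and 1499.2 at 600 µg/l. The dimmer, 1368147_at, read 533, 697.8 and 532.8 in sham, 844.1, 682.4 and 618.5 at 300 µg/l, and 671.1, 483.7 and 458.2 at 600 µg/l. In sham the 6 h array was the lowest of 3 by the first and the highest of 3 by the second. Both agreed that 600 µg/l lay below sham at 20 h. Over all times, 600 µg/l minus sham was -0.04 (SE 0.14, adjusted p = 0.95) and -0.13 (SE 0.14, adjusted p = 0.81).

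**Figure D1:**
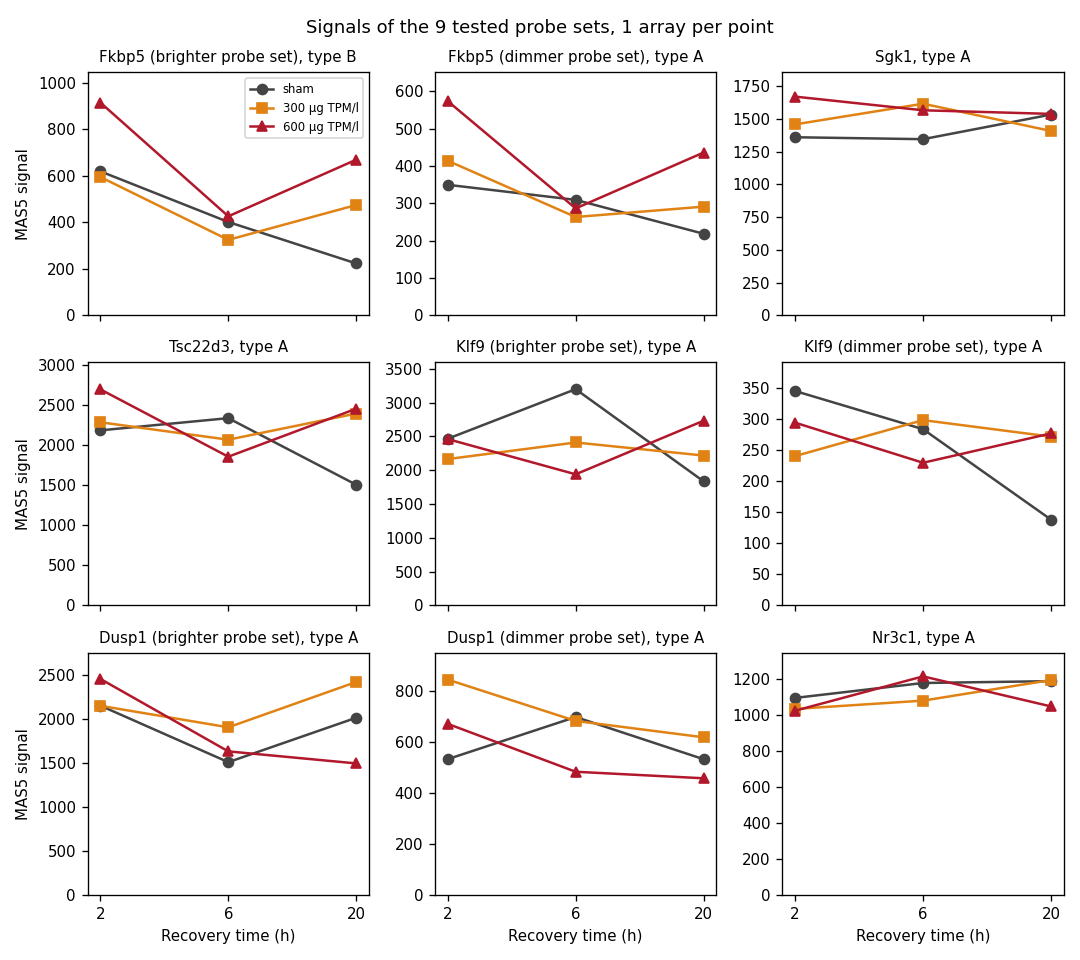
MAS5 signal on the vertical axis against recovery time for the 9 tested probe sets, with 1 point per array and no error bars since no condition had a replicate. In the panels of Fkbp5, Tsc22d3 and Klf9 the sham point at 20 h is the lowest of the 9, while Sgk1 and Nr3c1 stay within 1.24 and 1.19 times their lowest array.

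Across exposures, no member passed the adjusted threshold. At 600 µg/l against sham 0 of 9 member probe sets were called, where 0.514% of all 19638 tested probe sets were. At an unadjusted p under 0.05 there were 2, both of Fkbp5 and both higher, against 10.3% of all. This count was 0 without the condition at 600 µg/l and 20 h, and 1 without 600 µg/l at 2 h or sham at 20 h. At 300 µg/l against sham 0 were called (0.0458% of all) and 0 had an unadjusted p under 0.05 (5.53% of all). Between 600 and 300 µg/l 0 were called (0.0204%), and 1 had an unadjusted p under 0.05 (5.05%), the dimmer Dusp1 probe set, at -0.39. For both smoke levels together against sham 0 were called (0.407%) and 0 had an unadjusted p under 0.05 (8.63%). The median over the 9 was 0.11 at 600 µg/l and 0.13 at 300 µg/l, beside -0.01 and -0.002 over all tested probe sets. No condition had a replicate, so these p-values measure only the spread between arrays that exposure and time leave over.

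Across recovery times, Fkbp5 was highest at 2 h. Against 2 h, its type B probe set differed by -0.79 at 6 h and by -0.67 at 20 h on the log2 scale (SE 0.23 for both, adjusted p = 0.28 and 0.31). The doubtful type B array is among the 2 h arrays, and without it these differences were -0.69 and -0.57 (adjusted p = 0.62 and 0.65). Between 6 and 2 h 0 of 9 were called (0.0153% of all), and 3 had an unadjusted p under 0.05, all lower (10.8% of all), namely both Fkbp5 probe sets and the brighter Dusp1 probe set at -0.41. Between 20 and 2 h 0 were called (0.0509%) and 3 had an unadjusted p under 0.05, all lower (11.4%), again both of Fkbp5, with the dimmer Dusp1 probe set. Without the doubtful type B array this count was 2, and without 600 µg/l at 2 h it was 1. Without sham at 20 h it was 0, and the Fkbp5 differences were -0.31 by both probe sets. Between 20 and 6 h 0 were called (0% of all), and 0 had an unadjusted p under 0.05 (4.49%).

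**Figure D2:**
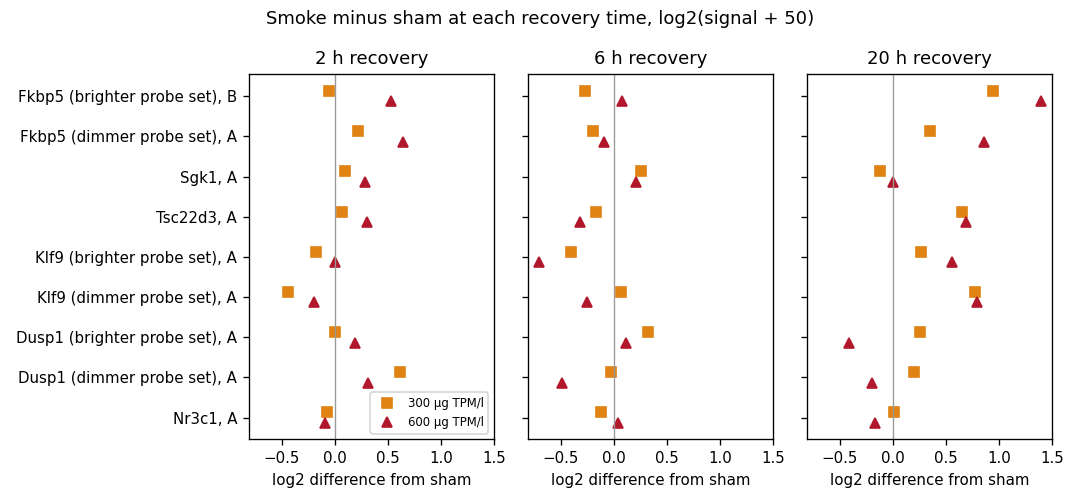
Difference from sham in log2(signal + 50) on the horizontal axis at each recovery time, with squares for 300 µg/l, triangles for 600 µg/l and 1 array behind each side of a difference. At 20 h both smoke levels lie right of 0 for Fkbp5, Tsc22d3 and Klf9, and at 6 h both lie left of 0 for Tsc22d3, the brighter Klf9 probe set and the dimmer ones of Fkbp5 and Dusp1.

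Smoke lay above sham at 20 h by all tested probe sets of Fkbp5, Tsc22d3 and Klf9. With both smoke levels averaged it lay below sham at 6 h by the same probe sets, and no such change passed the adjusted threshold. For Tsc22d3 smoke minus sham, with both smoke levels averaged, was 0.18 at 2 h, -0.25 at 6 h and 0.67 at 20 h on the log2 scale. Its smoke effect at 20 h minus that at 6 h was 0.92 (SE 0.18, 95% interval 0.50 to 1.34, adjusted p = 0.34). For the brighter Klf9 probe set smoke minus sham was -0.09, -0.55 and 0.41 at the same times, and the difference of effects was 0.97 (SE 0.24, 95% interval 0.43 to 1.51, adjusted p = 0.51). The dimmer Klf9 probe set gave 0.88 (SE 0.27, adjusted p = 0.65). For the type B probe set of Fkbp5 smoke minus sham was 0.24, -0.10 and 1.17, and the difference of effects was 1.27 (SE 0.42, 95% interval 0.33 to 2.20, adjusted p = 0.66). The type A probe set of Fkbp5 gave 0.75 (SE 0.34, adjusted p = 0.79). These SEs rest on the spread between both smoke levels within a time and hold no spread of sham arrays, so they do not cover how far 1 sham array may stray.

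The values of the remaining members were closer to 0. Sgk1 had a difference of -0.29 (SE 0.18, adjusted p = 0.85) and Nr3c1 of -0.04 (SE 0.18, 95% interval -0.46 to 0.37, adjusted p = 0.98). Dusp1 stood at -0.30 (SE 0.34) and 0.26 (SE 0.33) by its brighter and dimmer probe sets. Between 20 and 6 h 0 of 9 smoke effects differed past the adjusted threshold (0.00509% of all did), and 4 had an unadjusted p under 0.05, all higher (6.29% of all). The median of the 9 was 0.75, beside -0.01 over all tested probe sets. Probe sets of 1 gene are repeat readings and not independent, and with 1 probe set a gene 3 of 6 genes had an unadjusted p under 0.05 and the median was 0.44.

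**Figure D3:**
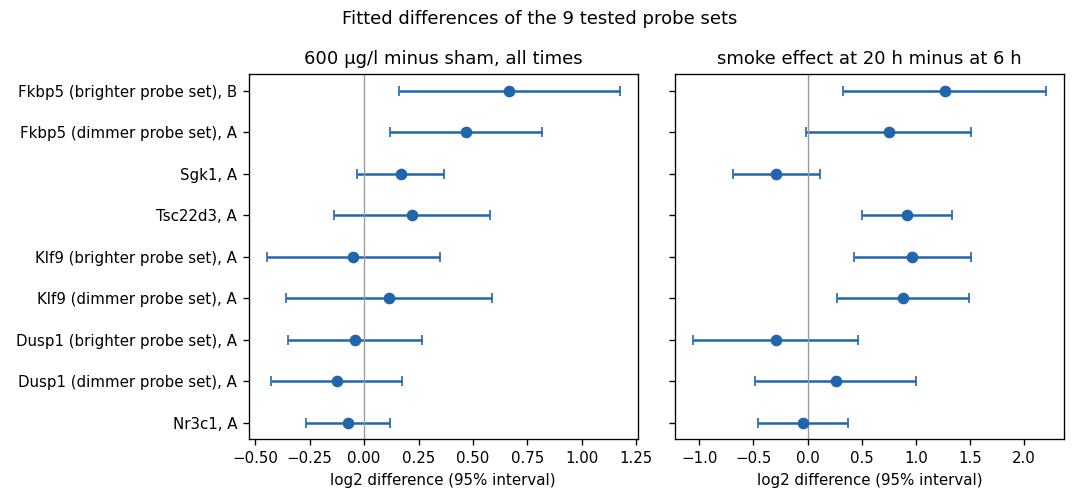
Fitted log2 differences of the 9 tested probe sets, with bars for 95% intervals, for 600 µg/l minus sham over all times (left) and for the smoke effect at 20 h minus that at 6 h (right). On the right the points of Fkbp5, Tsc22d3 and Klf9 lie between 0.75 and 1.27 and those of the other genes between -0.30 and 0.26.

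Against 2 h, 6 of 9 smoke effects were larger at 20 h and 5 of 9 were smaller at 6 h. For the smoke effect at 20 h minus that at 2 h 0 of 9 were called (0.0102% of all), and 2 had an unadjusted p under 0.05, both higher (3.45% of all). These were the dimmer Klf9 probe set at 1.11 and Tsc22d3 at 0.49. For the effect at 6 h minus that at 2 h 0 were called (0% of all), and 1 had an unadjusted p under 0.05 (6.27% of all), Tsc22d3 at -0.43. The comparisons between exposures, times and effects share the same arrays and are not independent of each other.

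Pairs of members were also set against each other over the 9 type A arrays. Fkbp5 and Tsc22d3 had r = 0.81 and rho = 0.83 (exact permutation, two-sided, adjusted p = 0.066 for both over 16 pairs), and r = 0.72 without the 2 arrays farthest from the median. Klf9 and Tsc22d3 had r = 0.68 and rho = 0.63 (exact permutation, adjusted p = 0.18 and 0.30). Fkbp5 and Klf9 had r = 0.40 and rho = 0.57 (exact permutation, adjusted p = 0.66 and 0.35). Fkbp5 and Nr3c1 ran against each other, with r = -0.78 and rho = -0.73 (exact permutation, adjusted p = 0.069 and 0.17). None of the pairs of different genes passed 0.05 after adjustment. The conditions are part of these correlations, so they describe courses and not variation between animals.

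By likeness of course over the 9 arrays of its type, Tsc22d3 was closest to Map1s (r = 0.94) and to both probe sets of Nr1d2 (r = 0.94 and 0.93), a nuclear receptor gene of the circadian clock. Klf9 was closest to Fam117a (0.95), Pdlim2 (0.95) and Zbtb43 (0.92). Fkbp5, on type B, was closest to Cdkn2c (0.93), Fanca (0.93) and Fhl1 (0.92). For Sgk1 the closest were Vat1 (0.93), Hprt1 (0.93) and Eif3f (0.92), for Dusp1 Luc7l2 (0.92), Rrp1b (0.91) and Cpeb3 (0.90), and for Nr3c1 Cep20 (0.96), Wscd1 (0.92) and Zmym4 (0.92). With 5400 to 8409 probe sets compared over 9 arrays, values of this size are a description only.

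A pair of clock genes is set beside the members, chosen after their values were seen. Dbp, a clock output gene, read 188.7, 1303 and 119.6 after 2, 6 and 20 h in the sham group, 414.8, 568.4 and 483.6 at 300 µg/l, and 446, 203.4 and 668.5 at 600 µg/l. Nr1d1, a repressor of the clock loop, read 778, 1522.5 and 179.2 in sham, 649.3, 496.5 and 679.7 at 300 µg/l, and 525.7, 148.8 and 909.7 at 600 µg/l. Both were highest in sham at 6 h and low there at 20 h, as the brighter Klf9 probe set was, over a far wider range. Fkbp5 in sham was highest at 2 h instead. Dbp and Nr1d1 in sham at 20 h, and Nr1d1 at 600 µg/l and 6 h, were below the minimum of 183.8, so the size of their range is uncertain. Of 14 tested clock and clock output genes, 9 had a higher and 3 a lower smoke effect at 20 h than at 6 h at an unadjusted p under 0.05. Over all tested probe sets 6.29% had such a p in either direction. Of the 14, 0 passed the adjusted threshold (0.00509% of all did), and the median was 1.04. The part of the clock genes in the courses of the members was not tested.

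Other genes that glucocorticoids induce were followed as a list of 30, of which 28 were on the arrays and 24 tested. At 600 µg/l against sham 2 rose, 0 fell and 22 did not pass, where 0.514% of all tested probe sets were called. Mt2A, a metal-binding metallothionein gene, read 579.2, 435.7 and 138.9 after 2, 6 and 20 h in the sham group, against 2242.8, 1218.7 and 1254.3 at 600 µg/l. Its change was 2.01 (SE 0.21, adjusted p = 0.0021). The sham array at 20 h was below 183.8, so the size is uncertain. Lcn2, which encodes an iron-scavenging defence protein and is also induced by inflammatory signals, rose by 1.93 (SE 0.14, adjusted p = 2.7e-04). Both kept their calls under all 20 alternatives tested for them. The median of the list was 0.07, beside -0.01 over all. For the smoke effect at 20 h minus that at 6 h 0 of 24 passed (0.00509% of all did), and the median was 0.12. At an unadjusted p under 0.05, 7 were higher and 1 lower (6.29% of all in either direction). Among the 7, named after their values were seen, were Per1, which is a clock gene too, at 1.78 (SE 0.36), the stress gene Ddit4 at 1.03 (SE 0.26) and the epithelial sodium channel gene Scnn1a at 0.80 (SE 0.19).

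**Figure D4:**
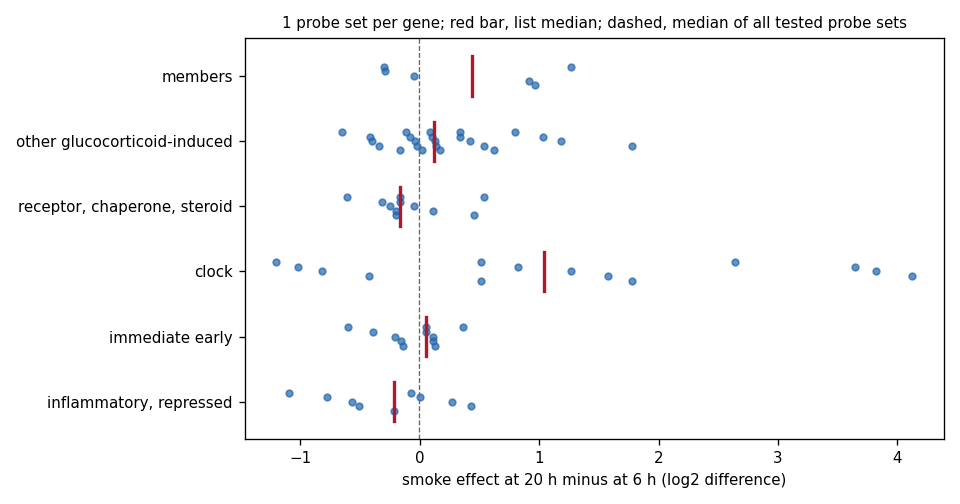
Smoke effect at 20 h minus that at 6 h (log2 difference, horizontal axis), with 1 dot per gene for the members and 5 other lists, a red bar at each list's median and a dashed line at the median of all tested probe sets. The medians are 0.44 for the members, 0.12 for other glucocorticoid-induced genes and 1.04 for clock genes, and the lists differ widely within themselves. Nr3c1 is in the lists of members and receptor genes, and Per1 in those of induced and clock genes.

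Genes of receptor function and steroid supply, such as HSP90 chaperones and the hydroxysteroid dehydrogenases that activate or inactivate corticosterone, gave 11 tested of 12 on the arrays. This list includes the member Nr3c1, and shares Nr3c2 and Fkbp4 with the paralogues below. At 600 µg/l against sham 0 of 11 passed (0.514% of all did), and the median was 0.09. At an unadjusted p under 0.05, 2 were higher and 1 lower (10.3% of all in either direction). Hsd11b1, whose enzyme regenerates corticosterone, stood at 0.18 (SE 0.07, adjusted p = 0.44), Ptges3, which encodes the HSP90 co-chaperone p23, at 0.19 (SE 0.07, adjusted p = 0.38), and the mineralocorticoid receptor gene Nr3c2 at -0.34 (SE 0.12, adjusted p = 0.35). For the smoke effect at 20 h minus that at 6 h 0 of 11 passed (0.00509% of all did) and the median was -0.16. Fkbp4, a related co-chaperone of HSP90, stood at -0.61 (SE 0.24, adjusted p = 0.76) there, opposite in sign to Fkbp5, and was named after its value was seen.

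Among 22 tested paralogues of the members 0 passed in any of the 10 comparisons, where 0% to 0.514% of all tested probe sets did. Klf15, a relative of Klf9 that glucocorticoids also induce, was named after its values were seen. It read 723.5, 1165.4 and 567.4 after 2, 6 and 20 h in the sham group, 695.1, 730.4 and 963 at 300 µg/l, and 867, 656.6 and 917 at 600 µg/l. Its sham arrays held the highest signal at 6 h and the lowest at 20 h, like the brighter Klf9 probe set, and its smoke effect at 20 h minus that at 6 h was 1.39 (SE 0.21, adjusted p = 0.21). The median of the paralogues in that comparison was 0.15.

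Inflammatory genes that glucocorticoids repress gave calls at 600 µg/l. Of 9 tested, 4 rose, 0 fell and 5 did not pass, with a list median of 0.69, where 0.514% of all tested probe sets were called. The neutrophil-attracting chemokine gene Cxcl1 read 520.9, 398.3 and 781.4 in sham and 1401.1, 1348.4 and 1631.6 at 600 µg/l, a rise of 1.33 (SE 0.22, adjusted p = 0.033). Cxcl2 rose by 1.17 (SE 0.18, adjusted p = 0.021), Ccl3 by 0.67 (SE 0.11, adjusted p = 0.039) and the macrophage elastase gene Mmp12 by 1.51 (SE 0.27, adjusted p = 0.045). Cxcl2 was dim in sham, at 63.2 to 83.5, which leaves its size uncertain. It reached the minimum of 183.8 on smoke arrays only, so it was tested because of the group in which it was high. Mmp12 in sham reached that minimum at 2 h only (191.2) and was below it at 6 h (157.9) and 20 h (162.4), so its size is uncertain too. With 3 arrays needed, it also passed the filter only through the smoke arrays in which it was high. Both genes are among the 4 that rose and count in the list median. These calls were not firm. Cxcl1 lost its call under 8 of 20 alternatives, Cxcl2 under 7 of 19, Ccl3 under 12 of 20 and Mmp12 under 10 of 20. Leaving out 1 condition, sham at 6 h, ended all 4 calls, with adjusted p from 0.11 to 0.20. Leaving out sham at 2 h instead did so too, with adjusted p from 0.085 to 0.14. Without sham at 20 h Cxcl1 kept its call (adjusted p = 0.013) and the other 3 lost theirs (0.074 to 0.15). Nos2, the inducible nitric oxide synthase gene, stood at -1.47 (SE 0.27, adjusted p = 0.051, 0.011 to 0.22 over the alternatives), with all 3 arrays at 600 µg/l below the minimum.

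Markers of lung cells were bright, with the surfactant gene Sftpc at a mean signal of 17302.5, the alveolar type 1 gene Ager at 8488 and the club cell gene Scgb1a1 at 14501. The summed signal of 4 neutrophil markers was 1426 to 2293.2 in sham, 3163 to 4244.7 at 300 µg/l and 3997 to 8356.2 at 600 µg/l. On the smoke arrays S100a9 makes up most of this sum, at 694.7 to 1033.4 in sham and 2976.4 to 6636.4 at 600 µg/l. Csf3r read 398.1 to 561.7 and 552.4 to 705.5 in these groups, and S100a8 194.2 to 613.5 and 375.2 to 908.3. Mmp8 was too dim to test. The summed signal of 3 macrophage markers was 22823 to 23157 in sham and 25638 to 26807 at 600 µg/l. Lyz2, at a mean signal of 17851.1, makes up most of this sum, and Cd68, read at 1026.2 to 2672.4, rose by 1.17 at 600 µg/l (SE 0.09, adjusted p = 5.2e-04) and by 0.85 at 300 µg/l (SE 0.09, adjusted p = 0.010). At 6 and 20 h the neutrophil sums were 1426 and 2293.2 in sham and 8356.2 and 6460.4 at 600 µg/l. Of other lung cells 0 markers were called at 600 µg/l against sham, where 0.514% of all tested probe sets were and 10.3% had an unadjusted p under 0.05. The 4 endothelial markers were all lower, 2 at an unadjusted p under 0.05, with a median of -0.26. The 3 T cell markers were all lower too, 2 at an unadjusted p under 0.05, with a median of -0.40. Of 4 alveolar type 1 markers 3 were lower, 2 at an unadjusted p under 0.05, and the median was -0.12. Of 2 club cell markers 1 was lower, at an unadjusted p under 0.05, namely Cyp2f4 at -0.79 (SE 0.23, adjusted p = 0.25), and Scgb1a1 was not lower. In whole lung, fewer cells of a type and less RNA per cell cannot be told apart, and the part of cell composition in the members' signals was not tested.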

How the data were processed

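Biotinylated cRNA was prepared from lung total RNA for Affymetrix arrays of 2 types, with 9 arrays of each, per the labels' protocols. Each deposited value is a linear intensity from MAS5, a tool named without a version in the submitters' processing notes. The trimmed mean without the highest and lowest 2% was 500.1 on every array, so this scaling was kept. Samples were grouped by title. Symbols came from the platform annotation, updated through Entrez identifiers.

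Signals were analysed as log2(signal + 50), so folds of dim probe sets are understated. A probe set was tested if 3 or more of its 9 arrays reached the type's 40th percentile, which was 183.8 for A and 238.7 for B, and 19638 qualified. Control probe sets (57) were left out, and the 100 others that both types carry were taken from A. Two-sided tests used the lmFit and trended eBayes functions of limma 3.58.1 (R 4.3.3) for each type, with p-values adjusted jointly for both types (Benjamini-Hochberg) and a threshold of 0.05, and were tested on simulated data. One model held exposure and time (4 residual degrees of freedom), the other fitted smoke by time, with 3. The number of arrays limits the precision.

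For lists, the brightest probe set of a gene was used, and at most 5 genes of a list were named, those with the smallest p between smoke and sham or between times. Others are marked as named after their values were seen. All member probe sets were named. The members and lists, including inflammatory, clock and immediate early genes, were chosen with earlier results of these data known. Alternatives covered scaling, pseudocount, filter, trend, adjustment and leaving out arrays.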

Additional observations from a re-analysis of the deposited data

How the results depend on the processing

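Under 22 alternative settings, which gave 188 counts of members called over the 10 comparisons, every count was 0, as in the report. Of 1680 alternative values of single members over all comparisons, 89 turned and 0 passed the threshold. For the member differences that the report prints there were 509, of which 14 turned. Counts at an unadjusted p under 0.05 were less stable: leaving out 1 condition gave 0 to 3 at 300 µg/l minus sham, at 600 minus 300 µg/l and for both smoke levels minus sham. For the smoke effect at 20 h minus that at 2 h it gave 1 to 5, at 6 h minus 2 h 0 to 3, and at 20 h minus 6 h 4 to 6. Without the 20 h conditions 600 µg/l minus sham was -0.014 for Tsc22d3, 0.15 for the brighter Dusp1 and -0.23 for the dimmer Klf9 probe set. Leaving out 1 condition at a time, that difference ran from -0.015 to 0.44 for Tsc22d3 and from -0.30 to 0.21 and -0.22 to 0.34 for the brighter and dimmer Klf9 probe sets. For Dusp1 it ran from -0.20 to 0.16 and from -0.32 to 0.037. The smoke effect at 20 h minus that at 6 h ran from -0.13 to 0.046 for Nr3c1 and from -0.63 to 0.042 for the brighter Dusp1 probe set. It kept its sign for Tsc22d3 (0.84 to 0.99), the brighter Klf9 (0.82 to 1.12) and the type B Fkbp5 probe set (1.04 to 1.49), but it could not be fitted without sham at 6 or 20 h, so it rests on these single arrays. The cause of the turned values was not tested. Recovery time is already a term of the additive model, and exposure alone, without it, also gave 0 calls. The labels give no replicate numbers, since each condition had 1 array of each type, so there was no other pairing to test. Signals of 1368222_at and 1390076_at were too dim to test.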

Other observations

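Immediate early genes, to which Dusp1 also belongs by function, were followed as a further list of 13, of which 12 were on the arrays and 11 tested. At 600 µg/l against sham 0 passed by limma (0.514% of all did), and the median was 0.05. At an unadjusted p under 0.05, 3 were higher and 1 lower (10.3% of all in either direction). For the smoke effect at 20 h minus that at 2 h 0 passed (0.0102% of all did), and the median was -0.48, with 1 of 11 above 0. At an unadjusted p under 0.05, 3 were lower and 0 higher (3.45% of all in either direction). For the effect at 6 h minus that at 2 h the median was -0.41, with 1 of 11 above 0. Here 2 were lower at an unadjusted p under 0.05 (6.27% of all in either direction) and 0 passed the adjusted threshold (0% of all). Both differences share the smoke and sham arrays at 2 h.

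The summed signal of 4 cardiac muscle markers was 1365.3 to 1864.3 in sham, 985.5 to 1207.4 at 300 µg/l and 867.8 to 1393.7 at 600 µg/l. Actc1, at a mean signal of 784.8, is the largest part of this sum, and Tnnt2 was too dim to test. For both smoke levels together against sham 0 of 3 tested were called (0.407% of all). All 3 were lower at an unadjusted p under 0.05 (8.63% of all in either direction), with a median of -0.39. Myh6 and Myl7 were dim, at means of 188.6 and 214.6, and the cause was not tested. The summed signal of 4 adipose markers was 499 to 628.3 in sham, 486.8 to 520.4 at 300 µg/l and 452 to 648.3 at 600 µg/l.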
